A study of Mus musculus with 14 samples.

Results

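A set of 10 imprinted genes, most of them with known roles in growth, *H19*, *Igf2*, *Meg3*, *Dlk1*, *Peg3*, *Zim1*, *Mest*, *Plagl1*, *Grb10* and *Ndn*, were followed through SOX9 induction in epidermal stem cells (EpdSCs), which renew the epidermis between hair follicles. They were chosen by name, and all 10 were found by gene symbol among the 54332 rows of the expression table. Their RNA was measured in 10 libraries, with 2 biological replicates at each of 5 time points. At D0, the mice were 21 days old and DOX had not yet switched on the transgene. W1, W2 and W6 are weeks on DOX, reached at 28, 35 and 63 days of age, and W12 is the grafted skin after 12 weeks on DOX. Every group was of CD1 strain and carried both K14rtTA and TRE-myc-Sox9, so the D0 cells held the transgene too. The *Krt14* promoter drove the activator, which directs induction to keratin 14-expressing epithelium. All cells were sorted from back skin as negative for CD31, CD45, CD117, CD140a and CD34 and high for CD49f and Ly6A. The W12 cells came from newborn skin that was grafted onto immunocompromised female hosts before induction, whereas earlier cells came from ungrafted mice, so that grafting and the longest induction cannot be told apart. Age and time on DOX also rise together from D0 to W6, and no age-matched uninduced library was analysed here.

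An imprinted gene is transcribed mainly from the copy inherited from one parent, because DNA methylation laid down in the egg or sperm sets the copies apart. In mice, many paternally expressed genes promote prenatal growth and many maternally expressed ones restrain it, and a network of them is strongly expressed in fetal tissues and falls after birth. Of the 10 genes, *Igf2*, *Dlk1*, *Peg3*, *Mest*, *Plagl1* and *Ndn* are known as paternally expressed and *H19*, *Meg3*, *Zim1* and *Grb10* as maternally expressed in most tissues. The values here count RNA from both copies together, so nothing was measured about which parental copy was transcribed.

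The unit is TPM, the abundance of a gene's transcripts per length relative to a fixed total in each library. It keeps no sequencing depth, and no counting error or lowest detectable level can be given. MYC-SOX9 RNA was 45.6 and 89.6 TPM at D0 and between 606 and 3414 TPM in the 8 libraries after DOX. All 7 basal keratinocyte markers were present at 1 TPM or more in at least 1 library, with *Krt14* highest, and summed to between 31948 and 48529 TPM. Within that sum, 6 of the 7 fell at W6 against D0 by the test used below, and at W12 *Trp63*, *Col17a1*, *Itgb4* and *Krt5* fell and *Ly6a* rose. Of 10 fibroblast markers, 6 stayed under 1 TPM in every library, and the collagen genes *Col1a1*, *Col1a2* and *Col3a1* reached at most 0.481, 1.08 and 0.791 TPM. On the same list, *Postn* was at 213 to 528 TPM, *Thy1* was highest at D0 with 35.7 and 47.5 TPM, and *Fbln1* rose at every time against D0, most at W6 by 2.97 on the log2 scale, to 120 and 67.1 TPM from 15.4 and 7.20 TPM. The part of other cells in the levels of the 10 genes was not tested. The number of genes listed above 0 ranged from 22033 to 31239 and was highest in W6 replicate 2. The labels give every mouse as male, but D0 replicate 2 held *Xist*, the RNA of the inactive X chromosome, at 4.61 TPM and only 0.0278 TPM of *Ddx3y*, a gene of the Y chromosome. The W12 libraries held both, *Xist* at 5.51 and 3.50 TPM and *Ddx3y* at 11.0 and 12.9 TPM, against *Ddx3y* values of 21.9 to 32.7 TPM in the other 7. Calls for the 10 genes are therefore given also without single libraries. As both W12 libraries held *Xist* and the hosts were female, the W12 values may include RNA of host cells, and its part in them was not tested.

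Most of the 10 genes were low in EpdSCs on average over the libraries. Only *Plagl1* and *Peg3* averaged 1 TPM or more over the 10 libraries, at 3.50 and 1.99 TPM, and they ranked 10715th and 11788th among all rows. The other 8 genes averaged between 0.00613 TPM for *Zim1* and 0.552 TPM for *Mest*. Among these, 5 genes, *Igf2*, *Ndn*, *Dlk1*, *Meg3* and *Zim1*, stayed under 1 TPM in every library, and 4, *H19*, *Dlk1*, *Meg3* and *Zim1*, were listed at 0 in at least 1 library. In the fit of the 13110 genes averaging at least 1 TPM, *Peg3* rose at W1 and *Plagl1* fell at W6 and W12, and neither passed the test at W2. The 8 lower genes could be tested only in a fit of all 38965 genes listed above 0 in some library, where *Grb10* rose at W12.

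**Figure D1:**
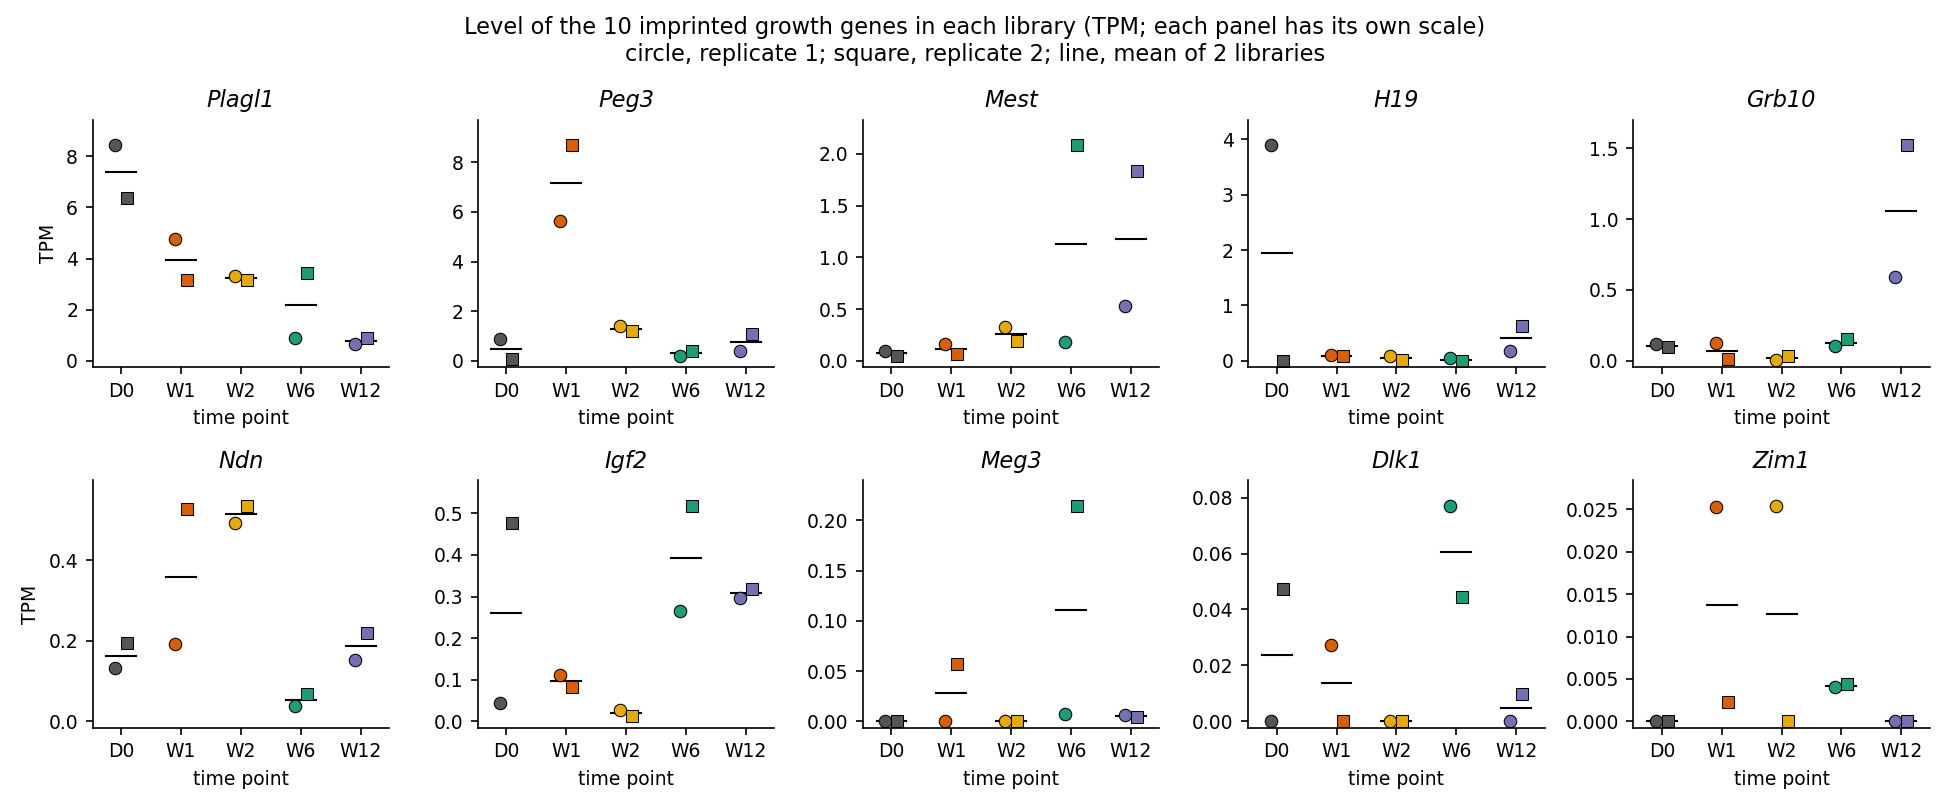
Level in TPM of each of the 10 genes (vertical axis, a separate scale per panel) in both libraries of each time point (horizontal axis), with circles for replicate 1, squares for replicate 2 and a line at their mean. *Plagl1* steps down from 8.42 and 6.35 TPM at D0 to 0.662 and 0.894 TPM at W12, *Peg3* stands highest in both W1 libraries, and the single high values of *H19* and *Mest* come from 1 library of a pair.

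*Plagl1* encodes a zinc finger transcription factor, known as a regulator of other imprinted genes and of the cell cycle. It lies on chromosome 10 at chr10:13060504-13131694 of GRCm38, on the plus strand, and its RefSeq start has 19 CG dinucleotides in the 250 bases before it. At least as many were found in 19.7% of the 32851 RefSeq start windows of that length. The first stretch of this window, chr10:13090582-13090690 on the plus strand, lies outside all annotated exons. It is shown because the mean of *Plagl1* was lower at each time point than at the one before. Capitals mark CG, the dinucleotide whose methylation carries the imprint.
Plagl1: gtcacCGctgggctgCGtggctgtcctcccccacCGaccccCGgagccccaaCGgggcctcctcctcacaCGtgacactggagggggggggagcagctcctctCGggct
The letters ACAAT, the core that SOX factors are known to prefer, or ATTGT on the other strand, occur in 27.7% of all windows. They occur nowhere in the 250 bases of *Plagl1*, which says only that these letters are not in this window.

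*Plagl1* was at 8.42 and 6.35 TPM in the 2 D0 libraries, 4.75 and 3.17 TPM at W1, 3.31 and 3.15 TPM at W2, 0.900 and 3.43 TPM at W6 and 0.662 and 0.894 TPM at W12. Both D0 values stood above all 8 later ones, an arrangement found for 8.31% of the 13110 genes, and both W12 values stood below all 8 others, as for 22.6% of those genes. The D0 mean was 7.39 ± 1.46 TPM (SD, n = 2) and the W12 mean 0.778 ± 0.164 TPM (SD, n = 2), 9.49 times lower. The W6 pair disagreed more than any other pair of this gene, with replicate 2 at the level of W1 and W2 and replicate 1 at the level of W12.

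The log2 change of *Plagl1* at W12 against D0 was −2.23 (SE 0.37, adjusted *P* = 0.00206 by limma), and 43.0% of all genes tested passed the threshold in that comparison. In bulk RNA of sorted cells, fewer cells that express a gene and less of its RNA per cell cannot be told apart. Left out in turn, the D0 libraries gave log2 changes of −2.05 without replicate 1 and −2.41 without replicate 2, and the W12 libraries gave −2.14 and −2.32, each still past the threshold. Of the 6 hair follicle stem cell markers, *Krt15*, which is also a basal epidermal keratin, fell as well (log2 change at W12 −5.37). It was at 11241 and 11928 TPM at D0, 429 and 1350 TPM at W6 and 322 and 242 TPM at W12. Its log2 changes at W1 and W2, −0.28 and −0.74, did not pass the test. The log2 changes of *Nfatc1* and *Cd34* at W12 were −0.86 and 4.31 and passed the test, and those of the other 3 markers did not. *Cd34* encodes CD34, for which the cells were sorted as negative, and the endothelial markers given below also rose at W12. The immune markers *Cd74* and *H2-Aa* fell at W6 against D0 by 2.53 and 1.21 on the log2 scale, and rose at W12 by 2.45 and 2.81. The summed mitochondrial genes were at 14636 and 12293 TPM at D0 and 30169 and 22144 TPM at W12. The part of mitochondrial RNA or of cell makeup in the fall of *Plagl1*, including that of the endothelial RNA at W12, was not tested. At W6 the log2 change of *Plagl1* was −1.52 (SE 0.37, adjusted *P* = 0.0158), where 32.4% of genes passed. That call was lost without D0 replicate 1 (log2 change −1.34, adjusted *P* = 0.0589), and the size depended on W6, from −0.91 without replicate 1 to −2.13 without replicate 2.

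At the earlier times the fall of *Plagl1* did not pass the test in the fit of all 10 libraries, but at W2 it passed when either W6 library was left out. The log2 changes against D0 were −0.77 at W1 (SE 0.37, adjusted *P* = 0.24) and −0.98 at W2 (SE 0.37, adjusted *P* = 0.114), where 9.89% and 15.7% of all genes passed. Neighbours in the order of the time points did not pass either. W2 differed from W1 by −0.21 (SE 0.37, adjusted *P* = 0.854), and W12 from W6 by −0.71 (SE 0.37, adjusted *P* = 0.219), against 0.114% and 20.2% of genes that passed in these comparisons. The W12 difference from W6 rested on the discordant W6 pair, at −1.32 without W6 replicate 1 (adjusted *P* = 0.026, past the threshold) and −0.10 without W6 replicate 2. The 3 genes whose levels followed *Plagl1* most closely over the 10 libraries were *Rassf6* (Pearson's *r* = 0.975), *Wnk4* (0.965) and *Nin* (0.964), on the scale of log2(TPM + 1). This likeness is a description, since all values at one time point share their libraries.

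*Peg3* encodes a large zinc finger protein that is known to affect fetal growth and maternal care. It lies at the proximal end of chromosome 7, chr7:6703892-6730431 on the minus strand, 7.4 kb from *Zim1* on the same strand and head to head with *Usp29*. The interval between the annotated first exons of *Peg3* and *Usp29*, chr7:6730432-6730577, read here on the minus strand, is shown because the 2 genes start on either side of it while only *Peg3* was found at over 1 TPM. Capitals mark CG.
Peg3: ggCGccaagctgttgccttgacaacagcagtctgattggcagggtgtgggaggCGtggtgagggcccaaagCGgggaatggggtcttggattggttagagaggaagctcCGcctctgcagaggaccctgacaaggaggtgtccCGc
The 250 bases before the RefSeq start of *Peg3* hold 8 CG dinucleotides, at least as many as which are found in 43.0% of all windows, and they hold neither ACAAT nor ATTGT.

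*Peg3* was at 0.868 and 0.0937 TPM at D0, 5.62 and 8.67 TPM at W1, 1.41 and 1.19 TPM at W2, 0.192 and 0.418 TPM at W6 and 0.403 and 1.09 TPM at W12. Both W1 libraries stood above all 8 others, an arrangement found for 7.83% of the 13110 genes. From a mean of 0.481 ± 0.548 TPM (SD, n = 2) at D0, *Peg3* reached 7.14 ± 2.16 TPM (SD, n = 2) at W1, 14.9 times the D0 mean and 5.50 times the W2 mean. The D0 pair differed widely, but its higher value was still under the lowest value at W2.

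The rise of *Peg3* at W1 was 2.48 on the log2 scale (SE 0.34, adjusted *P* = 0.0028 by limma), 1 of the 9.89% of genes past the threshold at that time. Leaving out D0 replicate 1 gave 2.87, and leaving out D0 replicate 2, the library with *Xist*, gave 2.10, both past the threshold. Mural cell markers were also higher at W1, with a sum of 39.5 and 39.4 TPM against 12.4 and 24.5 TPM at D0, and as high at W2, with 43.4 and 37.8 TPM. *Cspg4* was the highest gene of the sum at W1, with 23.8 and 18.3 TPM, and its change from D0 did not pass (1.07, adjusted *P* = 0.14). Also on this list, *Acta2* rose by 1.84 (adjusted *P* = 0.0101) and stayed up at W2, *Rgs5* was at 0.928 and 0.747 TPM at W1 and at most 0.519 TPM elsewhere, and *Myh11* and *Pdgfrb* reached at most 0.0338 and 0.0411 TPM. The summed mitochondrial genes were lowest in the 2 D0 libraries, at 14636 and 12293 TPM, against 25575 and 23156 TPM at W1. Among immune markers, *H2-Aa* rose by 0.94 at W1 (adjusted *P* = 0.0465 by limma), while the change of *Cd74*, −0.13, did not pass. On the fibroblast list, *Fbln1* rose by 1.92 at W1 and *Thy1* fell by 2.42. The part of any of these in the level of *Peg3* was not tested. By W2 the difference of *Peg3* from D0 was 0.68 (SE 0.34, adjusted *P* = 0.205), and it moved to 1.07 without D0 replicate 1 and 0.30 without D0 replicate 2, neither past the threshold. The drop from W1 to W2 was −1.80 (SE 0.34, adjusted *P* = 0.087), in a comparison in which 0.114% of all genes passed and which was added after the W1 values had been seen. At W6 and W12, the log2 differences from D0 were −0.14 (adjusted *P* = 0.782) and 0.26 (adjusted *P* = 0.562), and W12 differed from W6 by 0.40 (adjusted *P* = 0.451), each with an SE of 0.34. The sign of the W6 and W12 differences from D0 turned when 1 library was left out, without D0 replicate 1 at W6 (0.25) and without D0 replicate 2 (−0.13) or W12 replicate 2 (−0.03) at W12.

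The genes around *Peg3* did not share its W1 level. *Zim1*, a zinc finger gene beside it, was listed at 0 in 5 of 10 libraries and reached at most 0.0254 TPM. *Usp29*, a ubiquitin-specific protease gene on the other strand, was at 0 and 0.0169 TPM at W1 and highest at 0.176 TPM in W6 replicate 2, and *Zfp264* was at most 0.0328 TPM. The genes most like *Peg3* over the 10 libraries were *S100g* (Pearson's *r* = 0.969), *Rec114* (0.966) and *Ippk* (0.959). Of these, *Ippk*, an inositol phosphate kinase gene, was the most abundant, at 28.4 and 30.8 TPM at W1 against 10.2 to 15.2 TPM elsewhere.

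**Figure D2:**
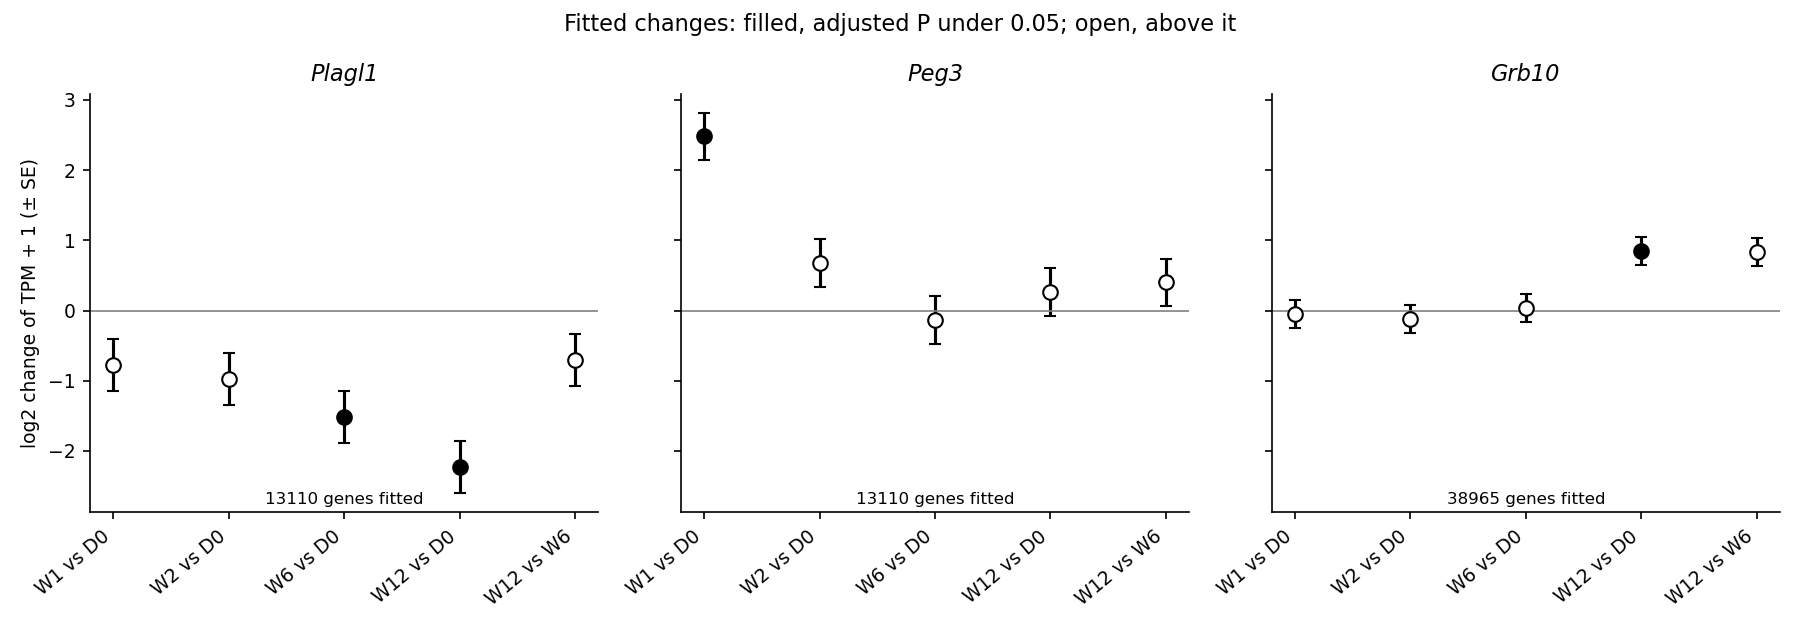
Fitted log2 change of TPM + 1 with its SE (vertical axis) for 5 comparisons (horizontal axis), with filled points for adjusted *P* under 0.05. *Plagl1* lies below 0 in every comparison and is filled at W6 and W12 against D0, *Peg3* is filled at W1 against D0 alone, and *Grb10*, fitted among the 38965 genes, is filled at W12 against D0 alone.

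The growth signalling arm is represented by *Igf2*, *Grb10* and *Dlk1*. *Grb10* encodes an adaptor that binds the insulin and IGF1 receptors and restrains their signalling, and lies at chr11:11930508-12038683 on the minus strand. It was at 0.121 and 0.0962 TPM at D0, 0.125 and 0.0125 TPM at W1, 0.00421 and 0.0357 TPM at W2, 0.103 and 0.155 TPM at W6 and 0.594 and 1.52 TPM at W12. The 2 W12 values stood above the other 8, an arrangement found for 7.40% of the 38965 genes, yet only W12 replicate 2 exceeded 1 TPM.

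In the fit of all 38965 genes, *Grb10* was higher at W12 than at D0 by 0.85 on the log2 scale (SE 0.20, adjusted *P* = 0.0361 by limma), where 13.6% of genes passed. Against W6 it was higher by 0.83 (SE 0.20, adjusted *P* = 0.064), where 6.22% passed. The call against D0 was lost in 11 of 16 alternative fits, among them those without D0 replicate 1 (adjusted *P* = 0.111), D0 replicate 2 (0.154), W6 replicate 1 (0.0718) or W6 replicate 2 (0.0717), and under quantile normalization (0.0792), with adjusted *P* between 0.00155 and 0.312 over all 16. The size moved with the W12 library, from 0.52 without replicate 2 to 1.18 without replicate 1.

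Endothelial marker RNA moved with *Grb10*. All 6 markers, *Pecam1*, *Cdh5*, *Kdr*, *Tek*, *Emcn* and *Vwf*, stood higher in both W12 libraries than in any other, and their sum was 70.7 and 151 TPM at W12 and 0.149 to 2.08 TPM elsewhere. *Pecam1*, which encodes the CD31 that the sort removed, was at 26.1 and 59.8 TPM at W12. *Fabp4*, on the adipocyte list and also abundant in capillary endothelium, was at 166 and 256 TPM there, whereas *Adipoq* and *Cfd* were listed at 0 in all 10 libraries. The part of such RNA in the W12 level of *Grb10* was not tested. A further list that could mark other cells at W12 was that of immune markers, with 2 of 7 (*Cd74* and *H2-Aa*, both of MHC class II) above all other libraries and a sum of 147 and 163 TPM against 4.56 to 36.1. The other 5 stayed under 1 TPM in every library. At W12, *Ptprc*, which encodes CD45, was at 0.0184 and 0.327 TPM, *Lyz2* at 0.171 and 0.956 TPM, *Cd3e* at 0.0317 and 0.0370 TPM, *Cd207* at 0 and 0.0356 TPM and *Trdc* at 0.00725 and 0 TPM. Of Merkel cell markers, 3 of 6 were above all other libraries, with *Krt8* at 46.3 and 145 TPM, *Krt18* at 32.9 and 105 TPM and *Krt20* at 0.258 and 0.544 TPM. *Isl1* was at 0.713 and 1.44 TPM, *Sox2* at 0.0214 and 0.0148 TPM and *Atoh1* at 0 in both W12 libraries. All 7 skeletal muscle markers stayed under 1 TPM everywhere. Of melanocyte markers, 4 of 6 were highest at W12, with a sum of 10.2 and 9.24 TPM against 1.27 to 9.88, and none of the 6 mural markers was.

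**Figure D3:**
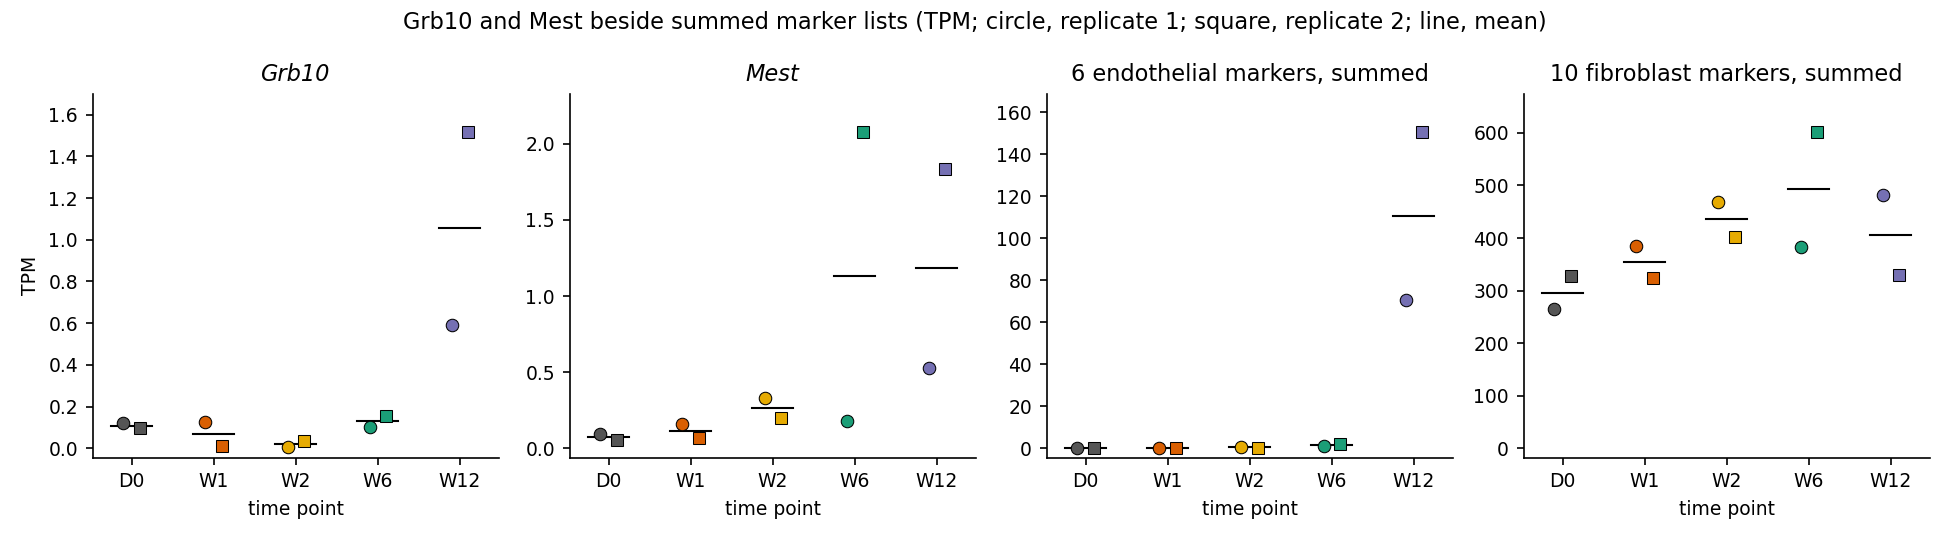
Levels of *Grb10* and *Mest* beside the summed levels of 6 endothelial and 10 fibroblast markers, in TPM (vertical axes, starting just below 0), in each library by time point (horizontal axes). *Grb10* and the endothelial sum, 70.7 and 151 TPM, are highest in the 2 W12 libraries with replicate 2 above replicate 1, whereas *Mest* is also high in W6 replicate 2 and the fibroblast sum, with *Postn* its highest gene, has no such step.

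*Igf2*, the fetal insulin-like growth factor, lies at chr7:142650766-142666816 on the minus strand, 72.6 kb from *H19*. It was at 0.0447 and 0.477 TPM at D0, 0.111 and 0.0828 TPM at W1, 0.0282 and 0.0124 TPM at W2, 0.265 and 0.518 TPM at W6 and 0.297 and 0.318 TPM at W12. Both W2 values stood below all others, as for 2.14% of the 38965 genes, and the D0 values spanned nearly the whole range of the gene. At W2 its log2 difference from D0 was −0.28 (SE 0.17, adjusted *P* = 0.607) and at W12 it was 0.07 (SE 0.17, adjusted *P* = 1). *Dlk1*, a transmembrane ligand of fetal progenitors that restrains adipocyte formation, was listed at 0 in 5 libraries and reached 0.0770 TPM, in W6 replicate 1. It was 0.03 log2 units lower at W12 than at D0 by the fit, with an adjusted *P* of 0.733.

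*H19* and *Meg3* are long non-coding RNAs, each transcribed from the maternal copy of a locus whose paternal copy yields a growth factor or ligand, *Igf2* and *Dlk1*. *H19*, at chr7:142575529-142578143 on the minus strand, was at 3.89 TPM in D0 replicate 1 and listed at 0 in D0 replicate 2. It was at 0.106 and 0.0852 TPM at W1, 0.0869 and 0.0167 TPM at W2, 0.0470 and 0 TPM at W6, and 0.186 and 0.626 TPM at W12. The one value over 1 TPM thus came from 1 library of a discordant pair, and the D0 values spanned those of all later time points. Both W12 values stood above all those of W1, W2 and W6, but the W12 difference from W6, 0.44 (SE 0.64), did not pass the test. Against D0, the log2 difference was −1.01 at W1 and −0.67 at W12 (SE 0.64 each, adjusted *P* = 0.718 and 0.682), and without D0 replicate 1 no library would hold *H19* at 1 TPM.

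The same D0 library, replicate 1, also held 4.68 TPM of *Igf2bp3*, a fetal RNA-binding protein gene, against 0.0918 TPM in replicate 2. *Igf2bp3* was at 3.98 and 4.58 TPM at W1, 1.51 and 2.03 TPM at W2 and at most 0.439 TPM from W6 on. *Meg3*, at chr12:109541001-109571726 on the plus strand and 77.7 kb from *Dlk1*, was listed at 0 in 5 libraries, with its highest value, 0.214 TPM, in W6 replicate 2. Its neighbours *Rian* and *Mirg*, transcribed in the same direction, reached 0.411 TPM in that library and 0.160 TPM in W12 replicate 2, and *Rtl1* and *Dio3* stayed at or under 0.0314 TPM. The locus was thus near 0 throughout, and W6 replicate 2 was also the library with the most genes listed above 0.

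Both non-coding RNAs are known as hosts of microRNAs, which the libraries did not measure as mature molecules. The mature sequences placed within *H19* by RefSeq on GRCm38.p6 are given for reference, with the seed, bases 2 to 8, in capitals. The 2 seeds differ.
mmu-miR-675-5p: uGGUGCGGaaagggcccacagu
mmu-miR-675-3p: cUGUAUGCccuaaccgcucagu
Their precursor gene *Mir675* was listed at 0 TPM in all 10 libraries.

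*Mest* encodes an α/β-hydrolase fold protein of the endoplasmic reticulum and is known as a marker of growing fetal mesoderm. It was at 0.0946 and 0.0520 TPM at D0, 0.159 and 0.0675 TPM at W1, 0.328 and 0.197 TPM at W2, 0.181 and 2.08 TPM at W6 and 0.530 and 1.83 TPM at W12. From D0 to W2 all 6 values stayed under 0.33 TPM, and at W6 and W12 replicate 2 was the only one of each pair above 1 TPM. The log2 changes against D0 were 0.83 at W6 (adjusted *P* = 0.312) and 0.96 at W12 (adjusted *P* = 0.301), with an SE of 0.47 each.

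The last exons of *Mest*, at chr6:30723547-30748465 on the plus strand, overlap those of *Copg2* on the minus strand. *Copg2*, which encodes a coat protein of Golgi vesicles, averaged 33.2 TPM, and the sources used here do not state whether strand was used in quantification. Reads in the overlap could therefore not be assigned with certainty. *Copg2* was at 41.4 and 42.8 TPM at D0, 24.1 and 29.0 TPM at W6 and 32.3 and 18.1 TPM at W12. Its log2 change against D0 was −0.65 at W6 (adjusted *P* = 0.0698) and −0.77 at W12 (adjusted *P* = 0.0302). *Klf14*, the next imprinted gene along, reached 0.118 TPM.

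*Ndn*, which encodes the growth suppressor necdin, known from neurons that have left the cell cycle, lies at chr7:62346569-62350262 on the plus strand. It was at 0.132 and 0.194 TPM at D0, 0.191 and 0.527 TPM at W1, 0.493 and 0.535 TPM at W2, 0.0379 and 0.0677 TPM at W6 and 0.152 and 0.220 TPM at W12. Both W6 values stood below all others, as for 1.58% of the 38965 genes, and the W2 values were above those of D0, W6 and W12. None of its differences from D0 passed the test, with log2 changes of 0.38 at W2 (SE 0.13, adjusted *P* = 0.258) and −0.14 at W6 (SE 0.13, adjusted *P* = 0.515). Of its neighbours in the imprinted domain, *Mkrn3* ranged from 0.184 to 1.20 TPM, *Peg12* reached 0.162 TPM and *Magel2* was listed at 0 in every library.

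Among the 8 genes averaging under 1 TPM, *Grb10* at W12 against D0 was thus the only one to pass the test in any of the 6 comparisons of the fit of all genes. In that fit the share of all genes that passed was 1.56%, 2.59%, 7.96% and 13.6% for W1, W2, W6 and W12 against D0, 6.22% at W12 against W6 and 0.0513% at W2 against W1. A log2 change on the scale of TPM + 1 understates the change of genes at such levels.

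Other imprinted genes were more abundant, and 23 of the 49 found in the table averaged at least 1 TPM. Of 14 tested that are known as maternally expressed in some tissues, 4 rose and 4 fell at W12 against D0, beside 43.0% of all genes, with a median log2 change of 0.23 against −0.08 over all genes. The largest rise was that of *Phlda2*, a placental growth restrainer, from 4.05 and 2.43 TPM at D0 to 34.8 and 42.7 TPM at W12 (log2 change 3.25, SE 0.30, adjusted *P* = 0.000102), and it had already risen by 2.66 at W6. *Tnfrsf23*, a decoy receptor gene, rose by 2.21. *Ascl2*, a basic helix–loop–helix factor, fell from 28.6 TPM in each D0 library to 8.95 and 4.81 TPM at W12 (log2 change −1.96, SE 0.30, adjusted *P* = 0.00132), and *Osbpl5*, an oxysterol-binding protein gene, fell by 1.63.

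**Figure D4:**
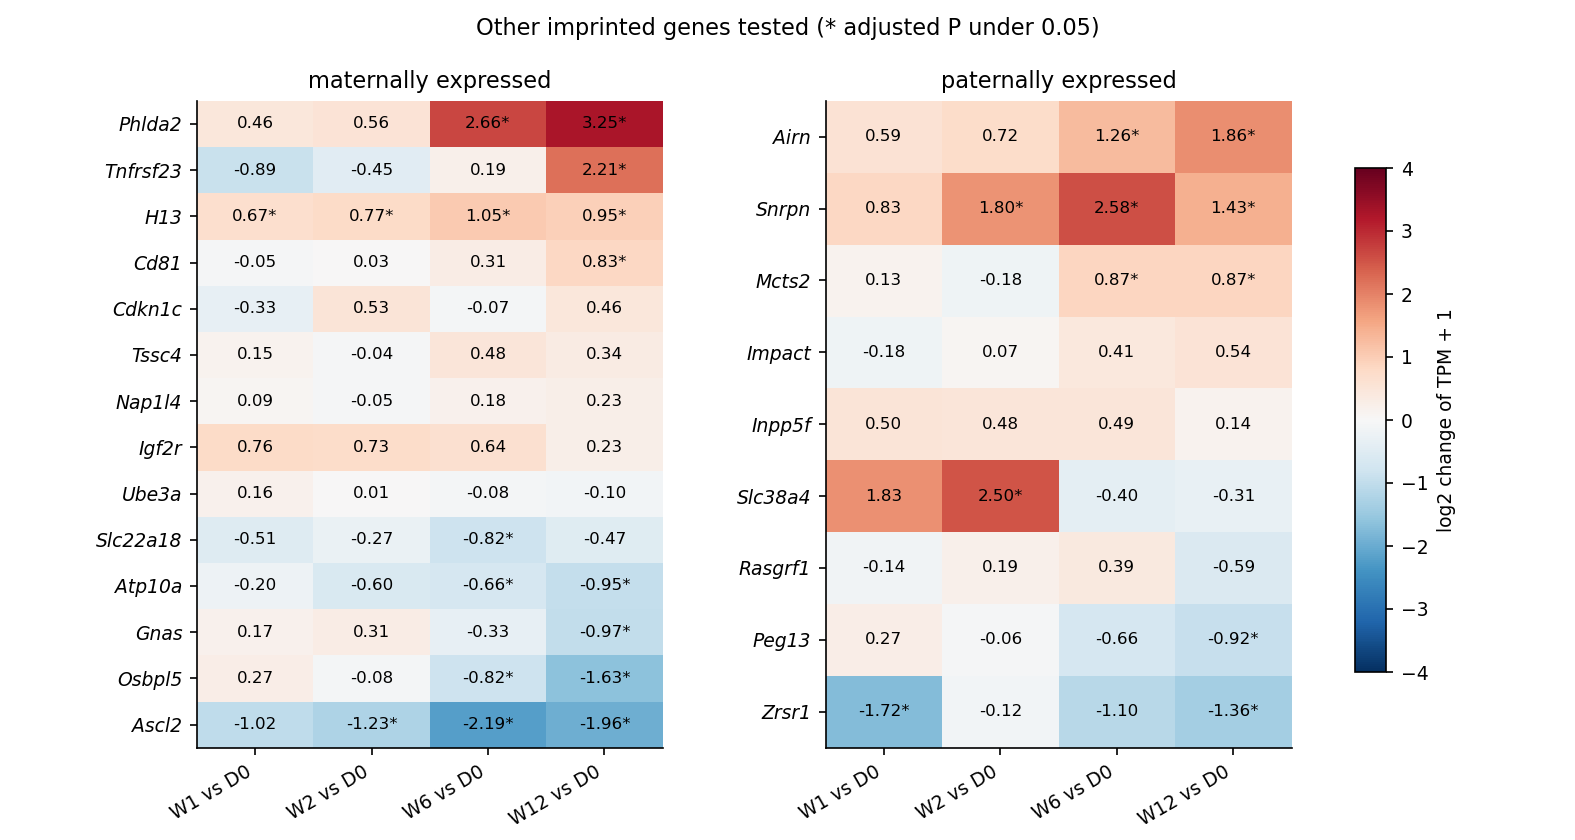
Log2 change of TPM + 1 against D0 (colour and printed value) by time point (columns) for the 14 maternally and 9 paternally expressed imprinted genes that averaged at least 1 TPM (rows, sorted by W12), with asterisks for adjusted *P* under 0.05. Rises and falls stand side by side in both panels, from 3.25 for *Phlda2* to −1.96 for *Ascl2* at W12.

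Of 9 tested paternally expressed imprinted genes, 3 rose and 2 fell at W12 against D0, beside 43.0% of all genes, with a median log2 change of 0.14. *Airn*, the antisense RNA that silences its paternal locus, rose by 1.86 (SE 0.23, adjusted *P* = 0.000505), from 0.112 and 0.0221 TPM to 2.79 and 2.94 TPM, and it overlaps *Igf2r* on the other strand. *Snrpn*, a splicing protein gene, rose by 1.43 and stood highest at W6, with 12.2 and 6.66 TPM. *Zrsr1* fell by 1.36 and the non-coding *Peg13* by 0.92. The count of the maternally expressed genes stayed between 7 and 11 over all alternatives, but that of the paternally expressed ones dropped from 5 to 2 without D0 replicate 2, to 2 without W12 replicate 1 and to 1 without W12 replicate 2. *Zrsr1* and *Peg13* were among the genes lost in each of these 3 fits. Of the 18 alternatives, 6 took the count of the paternally expressed genes well below 5, these 3 among them.

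Through the earlier comparisons, the 14 maternally expressed genes gave 1 call at W1, 2 at W2 and 6 at W6, and the 9 paternally expressed ones 1, 2 and 3, beside 9.89%, 15.7% and 32.4% of all genes. *H13*, a signal peptide peptidase gene, was the only one of the 23 called at every time against D0, higher by 0.67 at W1 and 1.05 at W6. *Slc38a4*, an amino acid transporter gene, was higher by 2.50 at W2 (SE 0.69, adjusted *P* = 0.0412), where its libraries differed at 49.2 and 17.8 TPM. Both were chosen after their values were seen.

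The list of the IGF system, in which *Igf2* and *Grb10* act, holds ligands, receptors, receptor adaptors, binding proteins, their proteases and inhibitors, and RNA-binding proteins of *Igf2*. Of 11 tested, 4 rose and 2 fell at W12 against D0, beside 43.0% of all genes. The binding protein genes *Igfbp2* and *Igfbp6* rose by 4.46 (SE 0.85, adjusted *P* = 0.00363) and 4.29 (SE 0.32, adjusted *P* = 3.9e-05), and *Stc1*, an inhibitor of the protease that frees IGFs, rose by 2.53. *Igfbp2* reached 171 and 241 TPM at W12, against 25.8 and 2.21 TPM in the discordant D0 pair, and its rise came to 5.99 when D0 replicate 1 was left out and to 2.93 when replicate 2 was.

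*Igfbp3*, the main IGF carrier of serum, followed another course. It was at 551 and 595 TPM at D0, 2.22 and 1.01 TPM at W1, 1.64 and 0.812 TPM at W2, 1.32 and 21.8 TPM at W6 and 81.2 and 76.8 TPM at W12. At W1 its log2 change was −7.81 (SE 0.83, adjusted *P* = 0.00103), and at W12 it was −2.84 (adjusted *P* = 0.0234), a call lost when either D0 or either W12 library was left out, with log2 changes of −2.90 to −2.79 and adjusted *P* between 0.0631 and 0.101. The receptor genes *Igf1r*, *Igf2r* and *Insr* stayed between 1.16 and 12.8 TPM with no call in the 5 planned comparisons. *Igf1*, which averaged under 1 TPM, was at 1.59 and 1.50 TPM at W12 and at most 0.325 TPM elsewhere. The endothelial sum given above was highest in the same W12 libraries, and its part in these values was not tested.

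The list of factors that place, keep or remove methylation or bind imprinted loci had 12 genes tested. At W12, 2 of them rose and 4 fell against D0, and 1 rose and 5 fell against W6, beside 43.0% and 20.2% of all genes, whose median log2 change against W6 was −0.16. *Dnmt3l*, the cofactor of the germline methyltransferases, rose from 0.729 and 0.220 TPM at D0 to 5.08 and 7.65 TPM at W6 and 15.0 and 14.2 TPM at W12 (log2 change at W12 3.42, SE 0.27, adjusted *P* = 4.92e-05). *Tet1*, which oxidizes methylcytosine, rose by 2.18, whereas *Tet3* fell by 1.42. *Uhrf1*, which guides the maintenance methyltransferase to replicated DNA, fell by 1.50 from W6 to W12 (adjusted *P* = 0.00718 by limma). It had risen by 1.42 at W6 against D0 (adjusted *P* = 0.00516). At W12 its difference from D0 was −0.08 (adjusted *P* = 0.838). *Zfp57*, which protects imprints in the embryo, averaged under 1 TPM, with 0.489 and 0.845 TPM at W12 and at most 0.0650 TPM elsewhere.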

How the data were processed

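After trimming, the authors ran Salmon 1.4.0 on the reads against a GENCODE index of GRCm38 that also held the transgene, summed transcripts to genes with Tximport 1.12.3 and deposited TPM, which sum to 1000000 in each library. Use of strand is not given in the sources used here. A deposited table of the authors' own comparison of hair placode cells was not used. It holds fold changes and test values of SOX9+ against SOX9-negative cells.

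Libraries were grouped by the sample labels, and every sample column was used. On log2(TPM + 1), the 5 group means were fitted over all 10 libraries with limma 3.58.1 (R 4.3.3), for genes averaging at least 1 TPM, with eBayes and a trend. *P* values are two-sided, adjusted by Benjamini-Hochberg over all genes tested, and called under 0.05. The fit was tested on simulated data.

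The 10 genes and all lists were chosen with earlier results of these data known. The text names these 10 genes and their neighbours, the 3 genes most correlated with each tested one, and from other lists the 4 largest changes past the threshold at W12 against D0 or W6. Genes named beyond this were chosen after their values were seen, and they include *H13*, *Slc38a4*, *Igf2bp3*, *Igf1*, *Zfp57* and the IGF receptors. Marker genes are given by list.

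Positions are from GENCODE M21 on GRCm38 and sequences from RefSeq on GRCm38.p6, in which 9 of the 10 genes had a start window. Alternatives were a pseudocount of 0.1, filters above 0 and of 5 TPM, median-ratio scaling, quantile normalization, no trend, only the 4 libraries compared, the replicate block and each library left out. Python 3.11.15 was used for the rest.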

Additional observations from a re-analysis of the deposited data

How the results depend on the processing

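The rise of *Peg3* at W1 kept its direction and call in all 18 alternatives (log2 changes of 2.10 to 4.03), as did the fall of *Plagl1* at W12 in all 17 (−3.09 to −2.05). The fall of *Plagl1* at W6 was lost among all genes above 0 (adjusted *P* = 0.0658), in the 4 libraries alone (0.108) and without D0 replicate 1 (0.0589), so the count of imprinted growth genes at W6 went from 1 to 0 in these fits. At W12 against D0 the count went from 1 to 2 among all genes above 0, through *Grb10*. With a library left out, the counts ranged from 0 to 1 at W2, at W6 and at W12 against W6, where W6 replicate 1 (W2, W12) or W6 replicate 2 (W2) gained *Plagl1*. Signs turned for uncalled values of *Plagl1* at W2 against W1 (0.02 without W1 replicate 1, down to −0.44 without replicate 2) and of *Peg3* at W6 (0.25 without D0 replicate 1, down to −0.52 without replicate 2) and at W12 (−0.18 with quantile normalization, −0.13 without D0 replicate 2, −0.03 without W12 replicate 2, up to 0.65 without D0 replicate 1). The cause was not tested. A mean of at least 5 TPM left none of the 10 genes.

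Same-numbered libraries are different mice, and their deviations correlated between −0.137 and 0.172. The replicate block changed no call of *Plagl1* or *Peg3* (*Plagl1* at W6, adjusted *P* = 0.0253; counts of 1, 0, 1 and 1 from W1 to W12 against D0) but ended that of *Grb10* at W12 (0.0544). A block with crossed numbers, added after seeing the data, gave counts of 1 at W1 and 1 at W6.

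Over all genes, the share of calls that were rises was 58.6% at W1 as deposited and 47.4% after median-ratio scaling, and 33.0% and 55.0% at W12 against W6, where the median log2 change of all genes moved from −0.16 to −0.01. Depth is unknown.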
